A study of Mus musculus with 6 samples.

Results

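Genes of cholesterol synthesis, of its control by the SREBP transcription factors and of sterol movement inside cells were compared between whole testes of AROM+ mice, which over-express aromatase from a transgene, and of wild-type (WT) mice. The members were 33 gene names of this pathway, and every non-control array probe carrying one of them was used. Of the 33 names, 32 had a probe, out of 34844 gene or locus names on the array. Msmo1 was found only under its older symbol Sc4mol, which is also on the list, so the 32 names are 32 genes. They had 49 of its 55681 probes.

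Each group held 3 testes, 1 per array, from male mice of 5 months on the C57BL/6 background, and the groups differed only in carrying or not carrying the transgene, as far as the labels say. The labels give neither the promoter nor the species of the aromatase transgene. The testes came from 3 mice per group. Total RNA was labelled with Cy3 and read on one-colour Agilent arrays. All levels below are log2 of the background-corrected spot intensity minus log2 of the 75th percentile of that array, so 0 is the 75th percentile. Differences are AROM+ minus WT on that log2 scale, with the standard error (SE) and adjusted p of limma. A probe is called higher or lower where the adjusted p, over all probes kept, is under 0.05.

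Cells make cholesterol from acetyl-CoA through mevalonate, isoprenoid pyrophosphates, squalene and lanosterol. SREBP proteins, encoded by Srebf1 and Srebf2, sit in the endoplasmic reticulum bound to the escort protein SCAP. When sterol is low, SCAP carries them to the Golgi, where the proteases encoded by Mbtps1 and Mbtps2 free the part that enters the nucleus and raises transcription of synthesis genes. When sterol is high, INSIG proteins hold SCAP back. In the testis, Leydig cells use cholesterol as the substrate of steroid hormones, and germ cells make intermediates of the late pathway.

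Sterol-responsive promoters are known for a sterol regulatory element beside a CCAAT box, which binds NF-Y. The 250 bases before the start site are shown for 4 members, 3 of them with probes higher in AROM+ testes and 1, Hmgcs1, with probes that differed. The sequences are RefSeq's for GRCm38.p6, written 5′ to 3′ on the strand of the gene, with the motif matches in capitals.
Hmgcs1 (chr13:119690101-119690350, + strand): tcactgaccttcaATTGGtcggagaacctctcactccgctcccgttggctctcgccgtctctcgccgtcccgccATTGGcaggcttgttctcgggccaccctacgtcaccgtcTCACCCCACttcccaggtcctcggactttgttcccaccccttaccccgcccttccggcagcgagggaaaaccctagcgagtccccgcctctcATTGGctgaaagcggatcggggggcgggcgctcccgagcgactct
Insig1 (chr5:28071162-28071411, + strand): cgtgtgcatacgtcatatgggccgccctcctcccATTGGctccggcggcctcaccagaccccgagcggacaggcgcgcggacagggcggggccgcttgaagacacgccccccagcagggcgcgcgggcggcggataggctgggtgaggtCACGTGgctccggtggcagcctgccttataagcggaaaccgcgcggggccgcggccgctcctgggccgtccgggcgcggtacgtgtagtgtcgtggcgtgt
Msmo1, the RefSeq name of Sc4mol (chr8:64733579-64733828, - strand): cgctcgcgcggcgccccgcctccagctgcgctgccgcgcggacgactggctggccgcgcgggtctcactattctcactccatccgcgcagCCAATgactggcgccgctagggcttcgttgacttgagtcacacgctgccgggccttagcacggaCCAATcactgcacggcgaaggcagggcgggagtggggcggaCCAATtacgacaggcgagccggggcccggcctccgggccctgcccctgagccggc
Sc5d (chr9:42264301-42264550, - strand): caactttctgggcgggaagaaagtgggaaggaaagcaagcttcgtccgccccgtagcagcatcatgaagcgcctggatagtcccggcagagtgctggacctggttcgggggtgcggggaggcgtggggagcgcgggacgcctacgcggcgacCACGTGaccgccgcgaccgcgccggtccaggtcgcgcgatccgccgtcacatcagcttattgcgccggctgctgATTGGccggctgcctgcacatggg
The motifs searched were TCACNCCAC for the sterol regulatory element, CCAAT for the NF-Y box and CACGTG for the E-box, each on both strands, and the matches shown do not overlap. Hmgcs1 held TCACCCCAC starting 137 bases before the start site, between NF-Y boxes read on the other strand as ATTGG at 237, 176 and 45 bases before it. Insig1 held an NF-Y box at 216 and an E-box at 101 bases before its start. Sc5d held an E-box at 98 and an NF-Y box at 24 bases before its start, and Msmo1 held 3 NF-Y boxes, at 160, 96 and 55 bases. Of the 26 members with a promoter in the table, 22 held the NF-Y box, which 37.5% of the 27025 genes in it hold. The sterol regulatory element was in 2 of the 26, Hmgcs1 and Stard3, against 1.22% of all genes. Only exact matches within the 250 bases were counted, so variants of the element and more distant elements were not sought. The E-box was in 4 of the 26, against 6.86%. A match is a description of these letters and does not show a bound site.

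A probe was kept if every array of either group read it well above background, which left 42637 probes, with 76.6% to 80.6% of spots per array well above background and no saturated spot. Pearson correlations over probes were 0.988 to 0.992 among AROM+ arrays, 0.994 to 0.996 among WT arrays and 0.962 to 0.983 between the groups. All arrays lie on 1 slide, with AROM+ in one row and WT in the other, so position on the slide and group cannot be told apart. The mouse gene Cyp19a1, which encodes aromatase, was not called: its probe read -3.31, -2.99 and -3.34 in AROM+ testes, against -2.77, -3.28 and -2.69 in WT testes (difference -0.30 ± 0.18 SE, limma adjusted p = 0.220). Whether this probe can detect the transgene is not given in the sources used here. The labelled tissue was borne out by its markers: those of spermatids had summed intensities of 160 to 168 times the array's 75th percentile in AROM+ testes and 187 to 260 times in WT testes. In whole tissue, fewer cells of a type and less RNA per cell cannot be told apart.

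More sterol gene probes were higher than lower in AROM+ testes. Of the 49 member probes, 48 were kept, each well above background on all 6 arrays, and the remaining probe, of Mbtps2, was well above background on 1 array. Of the 48, 20 were called higher and 5 lower, and 23 were not called. Over all kept probes, 14% were called higher and 30.4% lower. The median difference was 0.28 over the member probes and -0.19 over all kept probes. Taking each gene name by its brightest probe, 13 of the 32 members were called higher and 3 lower, where 14.3% of all 28925 gene names were called higher and 30.7% lower. In 21 member probes the 3 AROM+ arrays all lay above the 3 WT arrays, and in 8 they all lay below, against 17.7% and 40.3% of all kept probes. The count of 20 higher probes went down to 11 when arrays were scaled on their spike-in controls, and to 15, 13, 12 and 11 without AROM+ replicate 1, AROM+ replicate 2, WT replicate 1 and WT replicate 3. The corresponding count of 13 members went down to 5 with spike-in scaling and to 8, 8, 8 and 7 without those same arrays. The share of all kept probes called higher also fell, from 14% to 9.05% with spike-in scaling. It was 12.4%, 12.2%, 9.4% and 8.96% without those same arrays.

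**Figure D1:**
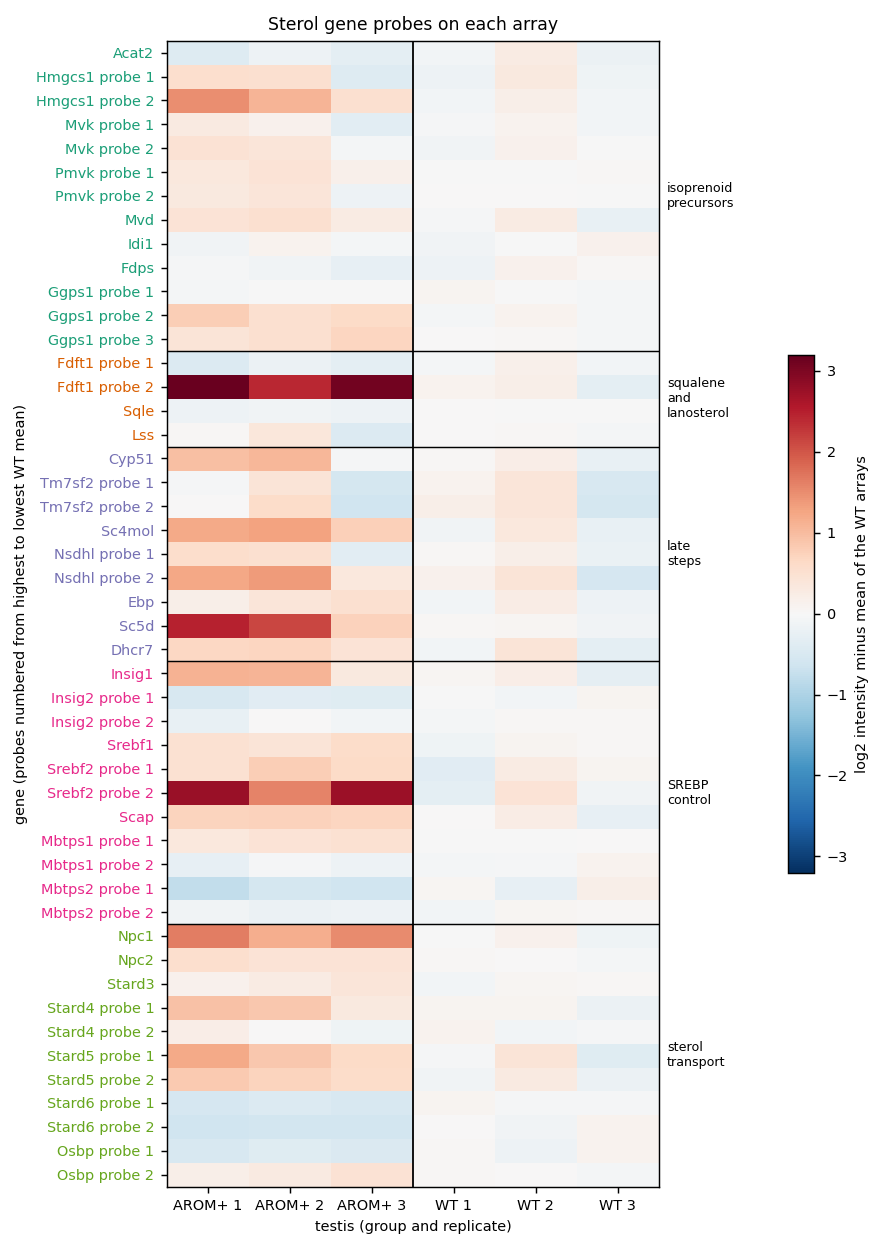
Level of each kept sterol gene probe (rows, grouped by role) on each array (columns, 3 AROM+ testes left of 3 WT testes), as log2 intensity minus the mean of the WT arrays of that probe. The darkest red rows are the dimmer Fdft1 probe, the Srebf2 probe with the difference of 2.36, and Sc5d, where AROM+ replicate 3 is paler than the other AROM+ testes.

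The enzymes that make isoprenoid precursors were mostly not called. Of their 13 probes, 4 were higher in AROM+ testes, 0 were lower and 9 were not called, with a median difference of 0.22. Beside this, 14% of all kept probes were higher and 30.4% lower. By the brightest probe, 1 of the 8 genes was higher (12.5%), near the 14.3% of all gene names, so this count is not a result about these genes. The gene called was Pmvk, which encodes phosphomevalonate kinase. Its brighter probe read -0.05, 0.05 and -0.22 in AROM+ testes, against -0.39, -0.39 and -0.34 in WT testes. The groups did not overlap, and the difference was 0.30 ± 0.10 (limma adjusted p = 0.0489). This call was lost with each array left out other than AROM+ replicate 3 (adjusted p up to 0.138), with quantile normalization, normexp background correction, either median centring, spike-in scaling and no filter on dim probes. Its other probe read -0.56, -0.49 and -1.04 in AROM+ testes, against -0.87, -0.87 and -0.90 in WT testes, with AROM+ replicate 3 the lowest of all arrays, and was not called (0.18 ± 0.16, adjusted p = 0.366).

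Ggps1, which encodes the synthase of geranylgeranyl pyrophosphate, used to attach lipids to proteins, had 3 probes that differed. The brightest read -0.55, -0.50 and -0.51 in AROM+ testes, against -0.41, -0.51 and -0.55 in WT testes, a difference of -0.03 ± 0.09 (limma adjusted p = 0.782). The AROM+ values lay inside the WT range or at its edge. A second probe, designed on another transcript (AK046876), read -0.18, -0.46 and -0.36 in AROM+ testes, against -1.03, -0.86 and -1.03 in WT testes, a 1.56-fold higher level (0.64 ± 0.11, adjusted p = 0.00711). The third read -1.03, -0.93 and -0.76 in AROM+ testes, against -1.42, -1.40 and -1.50 in WT testes (0.53 ± 0.10, adjusted p = 0.00935). In both of the dimmer probes every AROM+ testis was above every WT testis, and both calls held in each of the 16 other settings run. The first 30 bases of the 60-base probes are shown because these probes gave different results.
Ggps1 probe 1 (not called): ccttcactagtggctttagtcaagcactta
Ggps1 probe 2 (higher): atcccaggctgtaattctcaggcatcctaa
Ggps1 probe 3 (higher): tactcagctatatataagtttgtgaccagt

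Hmgcs1 encodes the cytosolic synthase that makes HMG-CoA. Its brighter probe read 2.70, 2.68 and 1.74 in AROM+ testes, against 1.99, 2.47 and 2.01 in WT testes. AROM+ replicate 3 was the lowest of all 6 arrays, the other AROM+ testes were the highest, and the probe was not called (0.22 ± 0.28, 95% interval -0.45 to 0.89, limma adjusted p = 0.550). A far dimmer probe, designed on the transcript AK031297, read -5.06, -5.48 and -6.03 in AROM+ testes, against -6.65, -6.36 and -6.65 in WT testes. It was 2.04-fold higher (1.03 ± 0.24, adjusted p = 0.0156) with no overlap of the groups, and the call was lost without WT replicate 1 or WT replicate 3 (adjusted p up to 0.0558). The size depended on the background correction: with normexp the difference of this probe was 0.44 (adjusted p = 0.0493).

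The other 5 genes of these steps had no called probe. They are Acat2, an acetyl-CoA thiolase, Mvk, the mevalonate kinase, Mvd, the decarboxylase that makes isopentenyl pyrophosphate, Idi1, which isomerises it, and Fdps, which builds farnesyl pyrophosphate. Their differences were between -0.30 (Acat2, adjusted p = 0.135) and 0.41 (Mvd, adjusted p = 0.0676). For Idi1 the 95% interval of the difference was -0.30 to 0.25, and for Fdps it was -0.41 to 0.15.

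The squalene and lanosterol steps held the probe with the largest difference of all 48. Fdft1 encodes squalene synthase, which joins farnesyl units into the first molecule committed to sterols. Its dimmer probe read 1.04, 0.30 and 0.97 in AROM+ testes, against -2.00, -1.92 and -2.42 in WT testes, or 0.77 ± 0.41 against -2.11 ± 0.27 (SD, n = 3 each). It was 7.38-fold higher in AROM+ testes (2.88 ± 0.23, limma adjusted p = 0.00213), and the groups lay far apart. Its brighter probe went the other way: 3.45, 3.70 and 3.55 in AROM+ testes, against 3.81, 4.03 and 3.79 in WT testes. Every AROM+ testis was below every WT testis on that probe, but it was not called (-0.31 ± 0.11, adjusted p = 0.0650). With a trend in the empirical Bayes step it was called lower (adjusted p = 0.0228), and with quantile normalization the difference shrank to -0.09 (adjusted p = 0.487).

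The brighter Fdft1 probe spans a splice junction between chr14:63765750-63769990 on the minus strand of NCBI37/mm9 and starts at base 1040 of its transcript. Levels of different probes are not compared here, since probes differ in brightness for the same RNA.

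Sqle encodes squalene epoxidase, a rate-setting enzyme of the pathway after mevalonate. It read 1.62, 1.67 and 1.61 in AROM+ testes, against 1.80, 1.77 and 1.78 in WT testes. The groups did not overlap, yet the difference was small and not called (-0.15 ± 0.08, 95% interval -0.35 to 0.05, limma adjusted p = 0.179). With normexp background correction it was called lower, at -0.29 with an adjusted p of 0.0454, and with quantile normalization the difference was -0.003 (adjusted p = 0.976). Lss, which closes squalene epoxide into lanosterol, was not called (-0.01 ± 0.19, adjusted p = 0.981). No brightest probe of the 3 genes of these steps was called, where 14.3% of all gene names were called higher and 30.7% lower.

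The late steps, which turn lanosterol into cholesterol, had 9 probes, of which 3 were higher in AROM+ testes, 0 lower and 6 not called, with a median difference of 0.59. Beside this, 14% of all kept probes were higher and 30.4% lower. Sc5d, which encodes the sterol C5-desaturase, read 2.44, 2.12 and 0.72 in AROM+ testes, against 0.03, 0.06 and -0.14 in WT testes. It averaged 1.76 ± 0.92 in AROM+ testes and -0.02 ± 0.11 in WT testes (SD, n = 3 each), a 3.43-fold higher level (1.78 ± 0.42, limma adjusted p = 0.0155). AROM+ replicate 3 lay between the other AROM+ testes and the WT testes. Without WT replicate 3 the call was just lost (adjusted p = 0.0545).

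Sc4mol (Msmo1) encodes the methylsterol monooxygenase that starts removal of the C4 methyl groups. Its level was 2.13, 2.21 and 1.69 in AROM+ testes, against 0.82, 1.25 and 0.69 in WT testes. Every AROM+ testis was above every WT testis (1.09 ± 0.20, limma adjusted p = 0.00769), and the call held in each of the 16 other settings. Dhcr7, the reductase that makes cholesterol from its last precursor in one branch, read 0.29, 0.31 and 0.08 in AROM+ testes, against -0.45, 0.04 and -0.69 in WT testes. It was 1.51-fold higher (0.59 ± 0.19, adjusted p = 0.0420), but WT replicate 2 lay just under AROM+ replicate 3. The Dhcr7 call was lost with each array left out other than WT replicate 2 (adjusted p up to 0.118), with spike-in scaling (adjusted p = 0.109) and with no filter on dim probes (adjusted p = 0.0703).

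The other late enzymes were not called. Cyp51, the lanosterol demethylase, read -4.89, -4.79 and -5.88 in AROM+ testes, against -5.83, -5.64 and -6.11 in WT testes. AROM+ replicate 3 was inside the WT range, and the difference was 0.67 ± 0.30 (limma adjusted p = 0.106). Without that testis it was called higher (1.02, adjusted p = 0.0114). Nsdhl, the dehydrogenase that acts after Sc4mol, had a probe reading -3.21, -3.06 and -4.10 in AROM+ testes, against -4.30, -4.02 and -4.98 in WT testes (0.98 ± 0.34, adjusted p = 0.0533), and a brighter probe with a difference of 0.24 ± 0.26 (adjusted p = 0.460). On both, AROM+ replicate 3 fell within or below the WT values. Ebp, the sterol isomerase, read 1.97, 2.19 and 2.30 in AROM+ testes, against 1.70, 2.03 and 1.63 in WT testes (0.36 ± 0.14, adjusted p = 0.0799). The 2 probes of Tm7sf2, a sterol C14-reductase, differed by -0.06 ± 0.31 and -0.01 ± 0.35.

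**Figure D2:**
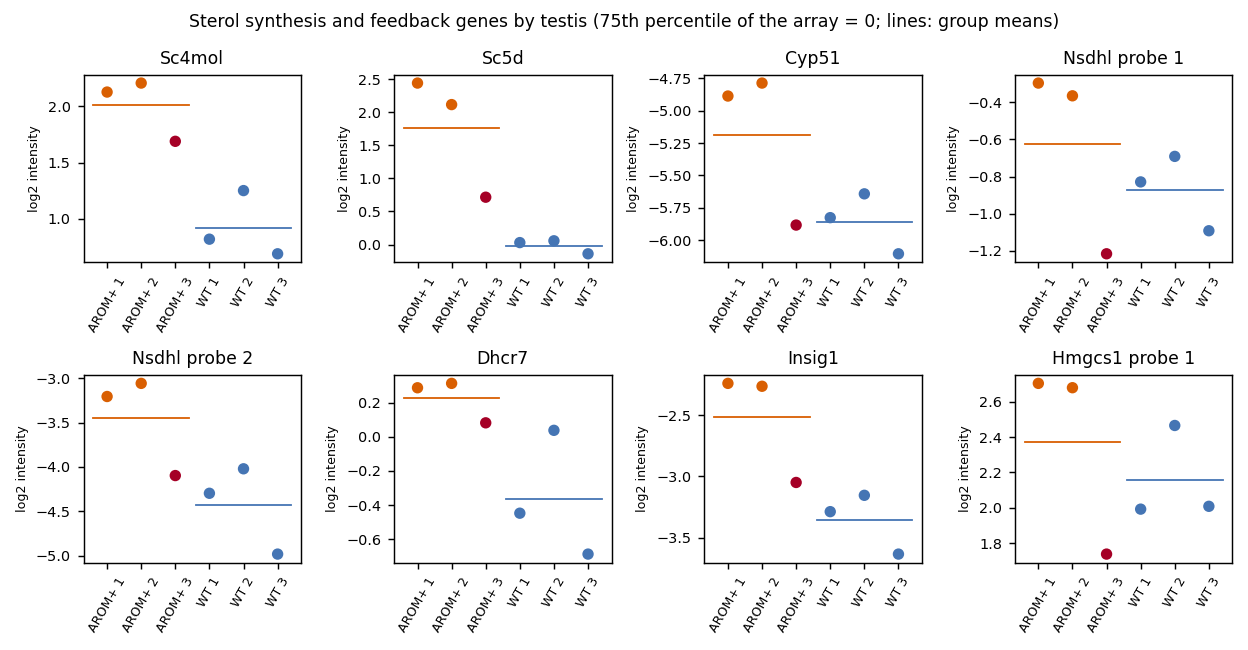
Log2 intensity of 8 probes of 7 sterol genes on each array (75th percentile of the array = 0), with 3 AROM+ testes left of 3 WT testes and lines at the group means. AROM+ replicate 3, in dark red, is the lowest AROM+ testis in each panel and lies inside or below the WT range in the panels of Cyp51, both Nsdhl probes and Hmgcs1.

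AROM+ replicate 3 was the lowest of the AROM+ testes on 8 of the 9 late-step probes, 8 of the 13 isoprenoid probes and 25 of all 48 member probes, against 29.7% of all kept probes. It was the lowest on only 2 of the 11 SREBP control probes and on 5 of the 11 transport probes. Without it, 5 of the 9 late-step probes and 6 of the 13 isoprenoid probes were called higher, against 12.2% of all kept probes. The late-step count was also 5 without WT replicate 2, with a block for replicate number and with a trend in the empirical Bayes step. WT replicate 3 was likewise the lowest WT testis on each late-step probe, for example at -6.11 for Cyp51 and -0.69 for Dhcr7. This was not particular to the sterol genes or to 1 cell type. AROM+ replicate 3 was the lowest AROM+ testis for 3 of 4 endothelial markers and 8 of 12 fatty acid synthesis genes. The same held for 3 of 8 spermatid, 2 of 6 spermatocyte, 1 of 8 Sertoli cell and 0 of 8 macrophage markers. Of the 8 Leydig cell markers, 5 also had AROM+ replicate 3 as the lowest AROM+ testis, while Cyp17a1, Hsd17b3 and Nr5a1 had it between the other AROM+ testes. Lhcgr, the luteinising hormone receptor, read 1.00, 0.54 and -1.99 in AROM+ testes, against -3.98, -2.43 and -5.20 in WT testes. Cyp11a1, which starts steroid synthesis from cholesterol, read 3.51, 3.48 and 2.91 in AROM+ testes, against 1.84, 2.09 and 0.71 in WT testes. The summed level of the 8 Leydig markers was 35.2 times the array's 75th percentile in AROM+ replicate 3 and 41.8 times or more in the other AROM+ testes, against 28.5, 35.9 and 19.5 times in WT testes. Their part in the result was not tested.

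The genes that control SREBP had 11 kept probes, of which 6 were higher in AROM+ testes, 2 lower and 3 not called, with a median difference of 0.42. Beside this, 14% of all kept probes were higher and 30.4% lower. By the brightest probe, 5 of the 7 genes were higher and 1 was lower, where 14.3% of all gene names were higher and 30.7% lower. The escort and both SREBP genes were among those higher. Scap read 2.23, 2.26 and 2.20 in AROM+ testes, close to one another, against 1.53, 1.75 and 1.26 in WT testes. It was 1.64-fold higher (0.72 ± 0.14, limma adjusted p = 0.00875), and the call held in each of the 16 other settings.

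Srebf2, which encodes the SREBP best known for driving cholesterol genes, had 2 probes that were both higher, by unequal amounts. The first read -1.84, -1.54 and -1.72 in AROM+ testes, against -2.69, -2.07 and -2.24 in WT testes (0.63 ± 0.17, 95% interval 0.21 to 1.04, limma adjusted p = 0.0266). The second read -0.04, -1.23 and -0.06 in AROM+ testes, against -3.13, -2.37 and -2.93 in WT testes (2.36 ± 0.36, 95% interval 1.52 to 3.21, adjusted p = 0.00541). On both the groups did not overlap, and on the second AROM+ replicate 2 was the lowest AROM+ testis while WT replicate 2 was the highest WT testis. The first call was lost without AROM+ replicate 2 or 3 or WT replicate 1 or 3 (adjusted p up to 0.0768), and the second held in each of the 16 other settings. The first probe lies at chr15:82034765-82034824 and the second at chr15:82030068-82030127, both on the plus strand of NCBI37/mm9, starting at bases 3944 and 3011 of their transcripts. Their first 30 bases are shown because the sizes differed.
Srebf2 probe 1 (higher, 1.55-fold): aactaggtctttgcaccagagagcattttg
Srebf2 probe 2 (higher, 5.15-fold): atccagctgttcacctgtgacctgctactg

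Srebf1, whose protein is best known for fatty acid genes, read -2.96, -3.03 and -2.86 in AROM+ testes, against -3.58, -3.35 and -3.40 in WT testes (0.49 ± 0.10, limma adjusted p = 0.0116). Every AROM+ testis was above every WT testis, and the call was lost with spike-in scaling (adjusted p = 0.0581). Insig1, itself a target of SREBP in other tissues, read -2.24, -2.26 and -3.05 in AROM+ testes, against -3.29, -3.15 and -3.63 in WT testes. AROM+ replicate 3 was only just above the WT testes, and the 1.79-fold difference (0.84 ± 0.24, adjusted p = 0.0307) was lost without AROM+ replicate 1 or 2 or WT replicate 1 or 3 (adjusted p up to 0.0997) and with spike-in scaling (adjusted p = 0.0780). Its relative Insig2 went the other way. One Insig2 probe read 0.47, 0.64 and 0.60 in AROM+ testes, against 0.99, 0.90 and 1.09 in WT testes, a 1.34-fold lower level (-0.42 ± 0.10, adjusted p = 0.0158) that was lost without WT replicate 1 or 3 (adjusted p up to 0.0603). The other Insig2 probe read 0.62, 0.87 and 0.77 in AROM+ testes, against 0.81, 0.89 and 0.89 in WT testes, with overlap, and was not called (-0.11 ± 0.10, adjusted p = 0.392).

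The genes of the SREBP proteases moved in opposite directions where they were called. Mbtps1, which encodes the site-1 protease, read 1.75, 1.86 and 1.90 in AROM+ testes, against 1.41, 1.41 and 1.42 in WT testes (0.42 ± 0.09, limma adjusted p = 0.0113). Its groups were tight and apart, although the call was lost with spike-in scaling (adjusted p = 0.0819). A dimmer Mbtps1 probe near the start of the transcript, at chr8:122071553-122071612, read -2.44, -2.19 and -2.33 in AROM+ testes, against -2.23, -2.21 and -2.05 in WT testes. The groups overlapped and it was not called (-0.15 ± 0.11, adjusted p = 0.268). The called probe lies at chr8:122032056-122032115, starting at base 4310 of the transcript rather than 438. Mbtps2, which encodes the site-2 protease, read -3.18, -2.95 and -3.01 in AROM+ testes, against -2.31, -2.64 and -2.20 in WT testes, a 1.58-fold lower level (-0.66 ± 0.14, adjusted p = 0.0113) that held in each of the 16 other settings. A dimmer Mbtps2 probe read -4.37, -4.47 and -4.45 in AROM+ testes, against -4.36, -4.21 and -4.24 in WT testes, and was not called (-0.16 ± 0.09, adjusted p = 0.192).

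**Figure D3:**
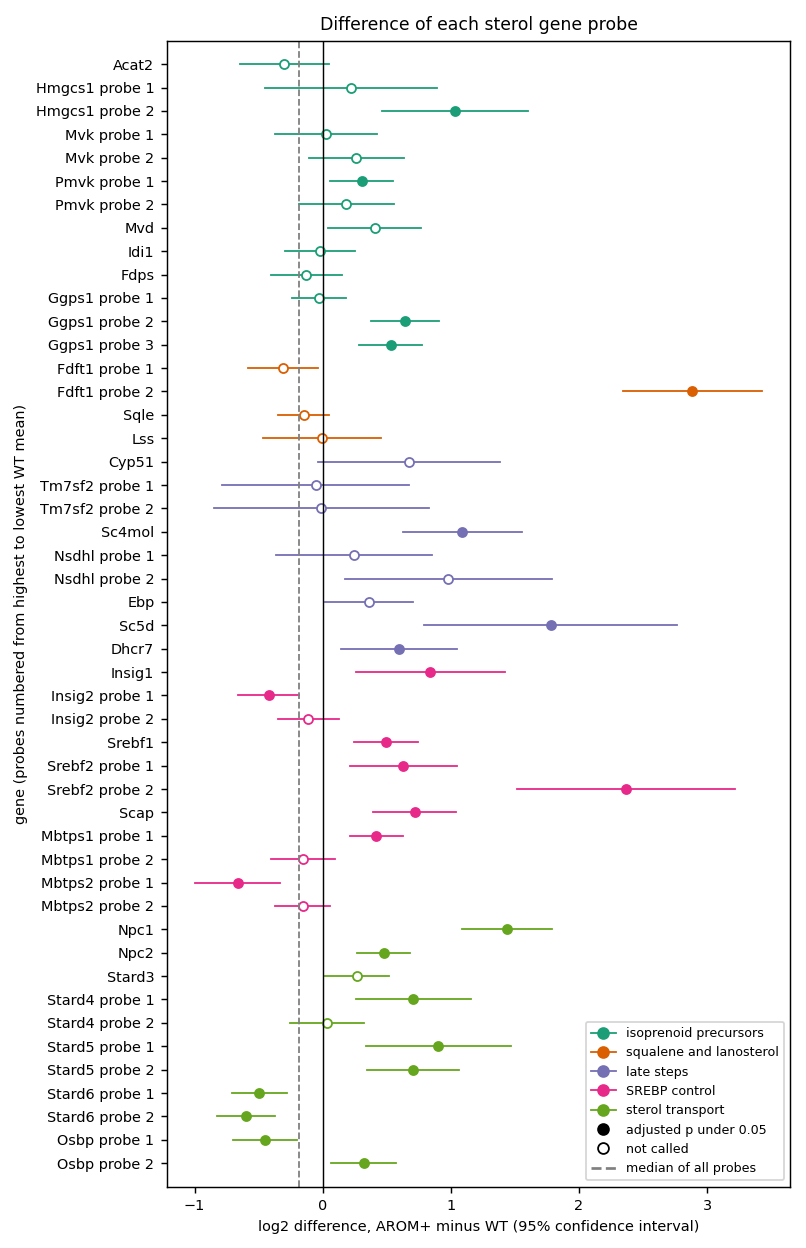
Difference of each kept sterol gene probe, AROM+ minus WT on the log2 scale (points, with 95% confidence intervals of limma over 3 arrays per group). Filled points have an adjusted p under 0.05, colours mark the role, and the dashed line is the median of all kept probes at -0.19. The 3 probes furthest to the right belong to Fdft1 (2.88), Srebf2 (2.36) and Sc5d (1.78).

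Sterol transport genes had 11 probes, of which 6 were higher in AROM+ testes, 3 lower and 2 not called. Beside this, 14% of all kept probes were higher and 30.4% lower. The share lower, 27.3%, is near that of all kept probes, so the count of lower probes is not a result about the group. The RNAs of both proteins that let cholesterol leave the lysosome were higher. Npc1, which encodes the membrane protein of the pair, read -0.89, -1.37 and -1.02 in AROM+ testes, against -2.54, -2.40 and -2.66 in WT testes. This was a 2.71-fold higher level with a wide gap between the groups (1.44 ± 0.15, limma adjusted p = 0.00316), and the call held in each of the 16 other settings. Npc2, which encodes the soluble partner, read 2.82, 2.75 and 2.74 in AROM+ testes, against 2.33, 2.31 and 2.24 in WT testes (0.47 ± 0.09, adjusted p = 0.00791). Its groups were also apart, and the call was lost with spike-in scaling (adjusted p = 0.0864).

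The START proteins, which carry sterols and other lipids between membranes, went both ways. Stard5 was higher on both probes, which read -1.44, -1.79 and -2.04 (first) and -2.38, -2.50 and -2.63 (second) in AROM+ testes, against -2.68, -2.24 and -3.05 (first) and -3.32, -2.91 and -3.39 (second) in WT testes. The groups did not overlap on either, and the differences were 0.90 ± 0.24 (limma adjusted p = 0.0228) and 0.71 ± 0.15 (adjusted p = 0.0118). The first call was lost without AROM+ replicate 1 or 2 or WT replicate 1 or 3 (adjusted p up to 0.0667) and with spike-in scaling (adjusted p = 0.0559), and the second held in each of the 16 other settings. Stard4 read -1.95, -2.02 and -2.59 in AROM+ testes, against -2.80, -2.80 and -3.08 in WT testes (0.71 ± 0.19, adjusted p = 0.0235). This call was lost without the same arrays (adjusted p up to 0.0807) and with spike-in scaling (adjusted p = 0.0865), and the dimmer Stard4 probe, at -4.09, -4.29 and -4.45 in AROM+ testes against -4.19, -4.40 and -4.33 in WT testes, was not called (0.03 ± 0.12, adjusted p = 0.841).

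Stard6, which is expressed mainly in male germ cells in mouse, was lower on both probes. The brighter read 3.10, 3.19 and 3.11 in AROM+ testes, against 3.71, 3.60 and 3.58 in WT testes (-0.50 ± 0.09, limma adjusted p = 0.00770). The dimmer read 1.34, 1.39 and 1.39 in AROM+ testes, against 1.98, 1.86 and 2.08 in WT testes, a 1.51-fold lower level (-0.60 ± 0.10, adjusted p = 0.00596). The AROM+ testes were close to one another and apart from the WT testes on both, and the call of the brighter was lost with quantile normalization (adjusted p = 0.0628). Stard3, which places cholesterol at late endosomes, read 0.78, 0.91 and 1.02 in AROM+ testes, against 0.54, 0.70 and 0.67 in WT testes. Its groups did not overlap, but it was not called (0.27 ± 0.10, adjusted p = 0.0760). It was called higher with normexp background correction (adjusted p = 0.0473) and with quantile normalization (adjusted p = 0.0416), and its adjusted p was 0.260 with spike-in scaling.

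Osbp, which exchanges sterol at contacts of the endoplasmic reticulum with the Golgi, was the 1 member with calls in both directions. The brighter probe read 1.74, 1.87 and 1.80 in AROM+ testes, against 2.30, 2.10 and 2.36 in WT testes, a 1.37-fold lower level (-0.45 ± 0.10, limma adjusted p = 0.0152). The dimmer probe read 0.04, 0.14 and 0.32 in AROM+ testes, against -0.11, -0.13 and -0.22 in WT testes, a 1.25-fold higher level (0.32 ± 0.11, adjusted p = 0.0471). The groups did not overlap on either probe. Without WT replicate 1 or 3 the first call was lost (adjusted p up to 0.0579), and it was lost with quantile normalization (adjusted p = 0.0548). The second was lost with each array left out other than AROM+ replicate 1 (adjusted p up to 0.140), with both median centrings, quantile normalization, spike-in scaling and no filter on dim probes. The brighter probe lies at chr19:12066457-12066516 and starts at base 2439 of its transcript, and the dimmer at chr19:12068250-12068309, starting at base 4232, both on the plus strand. The opening bases are shown for the opposite results.
Osbp probe 1 (lower): aacccatatttatagtggcgagtactggga
Osbp probe 2 (higher): ccttccttagataaaatgatcaaagattga

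Of the 15 members with more than 1 kept probe, 9 had probes whose calls differed and 4 had probes whose differences had opposite signs: Ggps1, Fdft1, Mbtps1 and Osbp. The other 17 members rested on 1 kept probe. In all, 17 members had at least 1 probe higher, 4 had at least 1 probe lower and 12 had no called probe. Of the 25 called probes, 14 kept the call with each array left out in turn, and 10 kept it in all 16 other settings. Those 10 probes belong to Fdft1, Ggps1 (2 probes), Npc1, Sc4mol, Scap, Srebf2 and Stard5, all higher, and to Mbtps2 and Stard6, both lower.

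**Figure D4:**
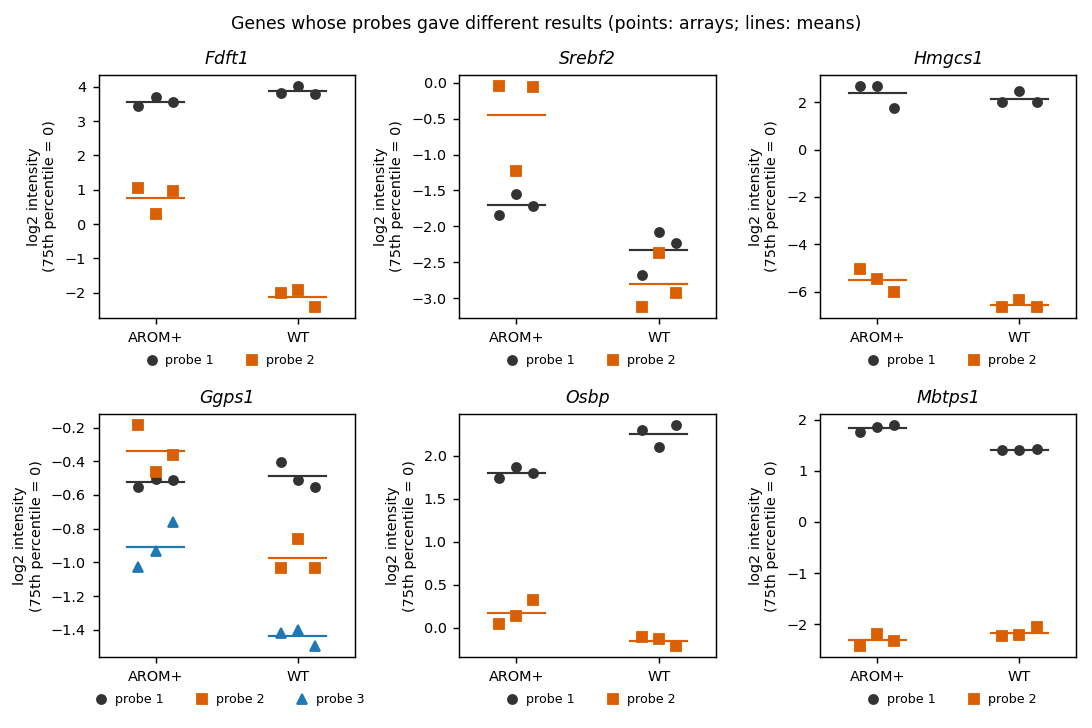
Log2 intensity (75th percentile of the array = 0) of each probe of 6 genes whose probes gave different results, with AROM+ testes left of WT testes, points for arrays and lines for group means. Fdft1 probe 2 was higher by 2.88 while probe 1 was not called, and Osbp probe 1 was lower while probe 2 was higher.

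Other genes that SREBP or sterols bear on were taken from 3 lists and read by their brightest probe. Of 12 fatty acid synthesis genes known as SREBP targets, 6 were higher in AROM+ testes and 1 was lower, with a median difference of 0.43. By the brightest probe, 14.3% of all gene names were higher and 30.7% lower. Elovl6, which lengthens long-chain fatty acids, read 1.54, 1.60 and 0.39 in AROM+ testes, against -2.48, -1.91 and -2.92 in WT testes (3.61 ± 0.38, limma adjusted p = 0.00328). AROM+ replicate 3 was again the lowest AROM+ testis, and the groups were far apart. The list's other named genes were Mid1ip1, an activator of acetyl-CoA carboxylase (0.98 ± 0.13, adjusted p = 0.00434), Acly, which makes cytosolic acetyl-CoA (0.59 ± 0.12, adjusted p = 0.0113), and Fasn, the fatty acid synthase (0.53 ± 0.12, adjusted p = 0.0135).

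Of 17 genes on branches of the sterol and isoprenoid pathway or its control, 3 were higher and 4 lower, with a median difference of 0.07. These shares are near those of all gene names (14.3% higher and 30.7% lower), so the counts are not a result about the list. Soat1, which esterifies cholesterol for storage, read 1.03, 0.92 and 0.71 in AROM+ testes, against -0.87, -0.54 and -0.98 in WT testes (1.68 ± 0.15, limma adjusted p = 0.00245). The groups were far apart. Acat1, the mitochondrial acetyl-CoA thiolase, was higher by 0.83 ± 0.14 (adjusted p = 0.00630), and Fntb, a farnesyltransferase subunit, by 0.62 ± 0.11 (adjusted p = 0.00702). Nr1h3, the oxysterol receptor LXR alpha, was lower (-0.49 ± 0.09, adjusted p = 0.00780). Of 11 relatives of Osbp, 10 were measured, of which 3 were higher and 4 lower, again beside 14.3% and 30.7% of all gene names. Osbpl10 (-0.63 ± 0.09, adjusted p = 0.00492) and Osbpl9 (-0.73 ± 0.14, adjusted p = 0.00835) were lower, and Osbpl8 (0.60 ± 0.11, adjusted p = 0.00767) and Osbpl5 (0.57 ± 0.12, adjusted p = 0.0103) were higher.

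Markers of several cell types also differed between the groups. Their counts by the brightest probe stand beside 14.3% of all gene names called higher and 30.7% called lower. Of 8 Leydig cell markers, 5 were higher in AROM+ testes and 0 lower. Of 8 macrophage markers measured, 6 were higher and 1, Csf1r, was lower, with summed levels of 51.3 to 68.1 times the array's 75th percentile in AROM+ testes and 30.8 to 44.2 times in WT testes. The largest term of these sums was Itgam, which was not called (-0.09 ± 0.16, limma adjusted p = 0.666). It read 4.41, 4.65 and 4.69 in AROM+ testes, against 4.68, 4.95 and 4.39 in WT testes. Of 4 endothelial markers, 4 were higher, with sums of 0.719 to 1.44 in AROM+ testes and 0.348, 0.422 and 0.329 in WT testes. Of 8 Sertoli cell markers, 2 were higher, with overlapping sums of 41.9 to 56.3 in AROM+ testes and 41.7 to 50.4 in WT testes. Germ cell markers were lower where called: 5 of 8 for spermatids and 3 of 6 for spermatocytes. The spermatocyte sums were 35.5 to 37.6 in AROM+ testes and 44.8 to 47.7 in WT testes. Markers were read only by kept probes, so none could be below background in every array. The part of these cell types in the sterol gene results was not tested.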

How the data were processed

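Gene expression was measured in 3 AROM+ and 3 WT whole testes, grouped by the genotype in their labels. The deposited scanner files hold spot intensities. They were written by Agilent Feature Extraction, whose version reads 10.7.3.1 in the file headers while the submitters' processing notes give 10.10. Per the file headers, the processed signal is the intensity after background correction. The authors also deposited a log2 table. Set against the scanner values, it was found to be close to the log2 processed signal shifted by a constant of each array (slope 1.00). On each array 93.9% to 94.1% of non-control spots lay within 0.01 of that shift on the log2 scale, and the others did not. The scale and direction of the table are thus known and genes were not centred. How its constants were chosen is not given in the sources used here. Its column medians were -3.05, -3.09 and -3.02 in AROM+ and -3.12, -3.11 and -3.09 in WT. It was used as an alternative.

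For the main values, the processed signals were put on the log2 scale and each array was set to 0 at its 75th percentile. Of 62976 spots per array, 3671 control spots and 123 to 192 spots with outlier flags were left out, and spots of 1 probe were averaged. Probes that every array of either group read well above background were kept and fitted together by lmFit and eBayes of limma (3.58.1, R 4.3.3). P-values were adjusted over the 42637 kept probes by Benjamini-Hochberg, with a threshold of 0.05. Scripts were tested on simulated data. P-values weigh the group difference against the spread between testes of a group, which eBayes moderates over all kept probes. They do not cover an effect of the slide row, which coincides with group, and the number of arrays limits the precision. Each probe of a member is its own result, and where a gene is counted once it is taken by its kept probe of highest mean. Gene names are those of the array files. By accession, 46 of the 49 member probes matched a RefSeq symbol, and 3 carry accessions that are not RefSeq transcripts. Probe positions are the files' (NCBI37/mm9). Per-array values are given for each probe of a member with a called probe. Up to 4 called genes with the smallest p are named from each other pathway list, mostly by their difference alone. Alternatives changed the background correction, scaling, filter, probe rule, eBayes step, replicate block and the arrays used. The members and lists were chosen with earlier results of these data known. Sequences are printed for a few probes and promoters only, and the others are not reported here.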

Additional observations from a re-analysis of the deposited data

How the results depend on the processing

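No called member probe changed direction under any alternative run. Against 20 probes higher and 5 lower, spike-in scaling gave 11 higher, quantile normalization gave 3 lower, and leaving out single arrays gave 11 to 22 higher and 3 to 5 lower. Against 13 members higher and 3 lower by their brightest probe, spike-in scaling gave 5 higher, quantile normalization gave 1 lower, and leaving out single arrays gave 7 to 15 higher and 2 to 3 lower. The cause was not tested. Dhcr7, Insig1, Pmvk and the dimmer Osbp probe also lost their calls with no filter on dim probes, where more probes are tested. Over all kept probes, 31.6% of calls were higher, against 38.9% with quantile normalization and 28.5% with spike-in scaling, and the median difference of -0.19 became -0.12 and -0.25 under them. Over all kept probes, 5982 higher and 12946 lower became 4007 and 7654 without WT replicate 1 and 3822 and 6776 without WT replicate 3. With spike-in scaling they became 3858 and 9691. Over all kept probes, deviations from the group mean correlated at 0.05, -0.15 and 0.04 for same-numbered AROM+ and WT testes. For the other pairs of an AROM+ and a WT testis they correlated at -0.14 to 0.12. With 3 testes per group, these values cannot decide whether the replicate numbers pair the testes. A fit with the replicate block gave 21 probes higher and 5 lower, and 14 members higher and 3 lower, with Cyp51 (adjusted p = 0.0423), Mvd (0.0454) and the dimmer Nsdhl probe (0.0189) called, and Pmvk (0.0943) and the dimmer Osbp probe (0.0975) not called. Signs turned only for uncalled differences near 0. With normexp these became 0.00296 (Tm7sf2), 0.0133 (Idi1), 0.00215 (Ggps1) and -0.0208 (Mvk). With quantile normalization they became 0.10 (Idi1) and 0.0961 (Fdps), and with centring on the brightest probes -0.00337 (Mvk). With spike-in scaling they became -0.0266 (Stard4) and -0.0319 (Mvk). With the deposited table they became 0.00288 (Idi1), 0.0144 (Tm7sf2) and 0.0197 (Lss). With single arrays left out, the ranges were -0.31 to 0.19 and -0.31 to 0.29 for the Tm7sf2 probes, -0.19 to 0.20 (Lss), -0.0974 to 0.0448 (Idi1), -0.0643 to 0.00919 (Ggps1), -0.0591 to 0.12 (Stard4) and -0.10 to 0.20 (Mvk). With 1 array left out, the smaller group has 2 testes, which limits these fits, while the 48 kept member probes were well above background on all 6 arrays.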
